A study of Mus musculus with 2 samples.

Results

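Candidate 5-formylcytosines (5fC) in a CG dinucleotide inside a protein-coding gene are described here. They were taken as every called cytosine of CG context lying between the start and the end of a protein-coding RefSeq gene on mouse GRCm38, with no flank, and 4 short stretches of chromosomes 2, 9, 14 and 17 that are packed with calls were left out. Replicate 1 held 1328 such sites among 28569 called cytosines and replicate 2 held 1417 among 29650. Together these were 2156 different sites, of which 589 were listed in both libraries. The mark was mapped in mouse embryonic stem cells, which are cultured pluripotent cells, with 2 libraries of 1 group, no treatment and no control library. In the assay, CLED-seq, the formyl group is coupled to biotin, tagged fragments are pulled down, and a deaminase then converts the cytosines that carry no tag, so that a retained C is read as candidate 5fC. The labels used here name no cell line, strain or medium, and do not say that the replicates came from separate cultures. Their counts were identical at most of the sites they share, closer than separate draws of reads at these depths would be, so values of both are given side by side and not as those of independent samples. Whether the libraries share reads or molecules was not tested, so a site listed in both cannot be taken as found in independent samples. The data are calls on DNA and hold no expression, so the labelled cell type could not be checked against marker genes.

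5fC arises when TET enzymes oxidise 5-methylcytosine by way of 5-hydroxymethylcytosine. Thymine DNA glycosylase can cut 5fC out, after which base excision repair restores a plain cytosine, so the mark is an intermediate of active DNA demethylation. In mammals most 5-methylcytosine sits in CG dinucleotides, which read the same on both strands and cluster in CpG islands at many gene starts.

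The sequences around called sites near gene starts show what kind of DNA these calls came from. RefSeq promoter windows on GRCm38.p6 cover 250 bases before a gene's start and 50 after it, and 36 sites listed in both libraries fell inside one. Each line below gives 30 bases of the called strand, 5′ to 3′, with the called C and its G in capitals. They are 7 of the 12 such sites with the greatest summed depth, shown because they span the range of levels.
Cdk6: gagagggggcgtgcCGagcagcccagagtg
Rsrc1: gcctgggcccgcggCGtgcggtttgtagcc
Ankrd54: tcgctgtcagcgaaCGgacgggcggggcct
Gps1: cgatcgccccggccCGggcgctgggcgccc
Hpca: ctcccgggagggggCGggggcggagcctag
Kctd12: cgcgacccgccactCGcctggagcgcgcgg
Atp5j: gcgacgggcgactcCGccgcgtcccgcaac

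The stretches are chr5:3343851-3343880 on the minus strand for Cdk6, a cyclin-dependent kinase of G1, and chr3:66985928-66985957 on the plus strand for Rsrc1, a splicing-related protein. They are chr15:79062878-79062907 (plus) for Ankrd54, chr11:120784164-120784193 (plus) for Gps1, a subunit of the COP9 signalosome, and chr4:129121374-129121403 (minus) for Hpca, the neuronal calcium sensor hippocalcin. They are chr14:102982619-102982648 (minus) for Kctd12, an auxiliary subunit of GABA-B receptors, and chr16:84835772-84835801 (minus) for Atp5j, a subunit of ATP synthase. A member site can lie before the start of the gene whose window is printed when another transcript or gene spans it.

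At each site the number of reads that kept the C is given over the depth, and their ratio is called the level. Because only tagged fragments were pulled down, a level does not give the proportion of all genome copies that carry 5fC. The Cdk6 site, at -27 from the start, kept the C in 75 of 75 reads in replicate 1 and 38 of 38 in replicate 2. Rsrc1 kept it in 37 of 42 and 38 of 43 reads (88.1% and 88.4%), and Ankrd54 in 35 of 42 in both (83.3%). These 3 sites were high in both libraries.

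The Gps1 site lies at -92 from the Gps1 start and is a member because it lies inside Rfng, at 26 from the Rfng start on the other strand. It was intermediate at 36 of 51 and 36 of 50 reads (70.6% and 72.0%). Hpca stood at 11 of 48 reads in both libraries (22.9%), Kctd12 at 10 of 43 in both (23.3%) and Atp5j at 9 of 43 in both (20.9%). For Atp5j the 95% Wilson interval ran from 11.4% to 35.2%, which is apart from the interval of 69.4% to 91.7% for Ankrd54. Levels at these 7 sites thus ranged from 20.9% to 100%, and over all members in promoter windows the lowest was 20% in replicate 1 and 20.9% in replicate 2.

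The promoter of Kmt2a, a histone H3 lysine 4 methyltransferase of the trithorax group, is printed in full before its start because it shows how many CpGs stood unlisted around one listed site. The 250 bases are chr9:44881290-44881539 on the minus strand, the coding strand. Capitals mark the one listed CpG, at -59, whose C was called on the plus strand.
Kmt2a: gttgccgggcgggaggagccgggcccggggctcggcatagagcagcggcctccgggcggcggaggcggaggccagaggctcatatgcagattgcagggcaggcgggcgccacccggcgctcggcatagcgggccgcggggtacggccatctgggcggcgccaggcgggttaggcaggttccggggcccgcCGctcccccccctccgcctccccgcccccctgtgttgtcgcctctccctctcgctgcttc

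Of the 29 CpGs in this stretch, 1 was listed, with 11 of 52 reads in both libraries (21.2%, Wilson interval 12.2% to 34.0%). A cytosine is listed when it was called at 30 reads or more with an adjusted p under 0.05, so the depth and level of the other CpGs are not known, and an unlisted CpG is not one shown to lack 5fC.

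The other promoter sites among the 12 were in Rap1gap, which turns off the small GTPase Rap1, at 14 of 47 and 14 of 45 reads, in Akap7, an anchor of protein kinase A, at 11 of 44 and 11 of 45, in Ankrd9 at 13 of 44 in both, and in Tmem141 at 11 of 43 in both. All 4 genes had levels between 24.4% and 31.1%. At members in promoter windows the reference trinucleotide was the one the files give, at 84 of 84 sites in replicate 1 and 79 of 79 in replicate 2, and it also matched at 236 of 236 and 218 of 218 non-CG sites. Position, strand and context of the calls therefore match the reference where it could be read.

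Levels over all member sites ran from the lowest listed to full retention. Only cytosines that met the limits on depth and adjusted p are listed, so sites at low levels can be missing. Medians and quartiles therefore describe listed sites only. Under 20% stood 6 members in replicate 1 and 11 in replicate 2. The lowest was 17%, the median 48.7% and the highest 100% in replicate 1, and 16.5%, 48.5% and 100% in replicate 2. The quartiles were 31% and 78.4% in replicate 1 and 32.3% and 77.1% in replicate 2. Among listed sites the distribution had a broad group at low levels and a second rise at the top, as the plot of levels shows. Its shape at the low end depends on the calling limits.

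**Figure D1:**
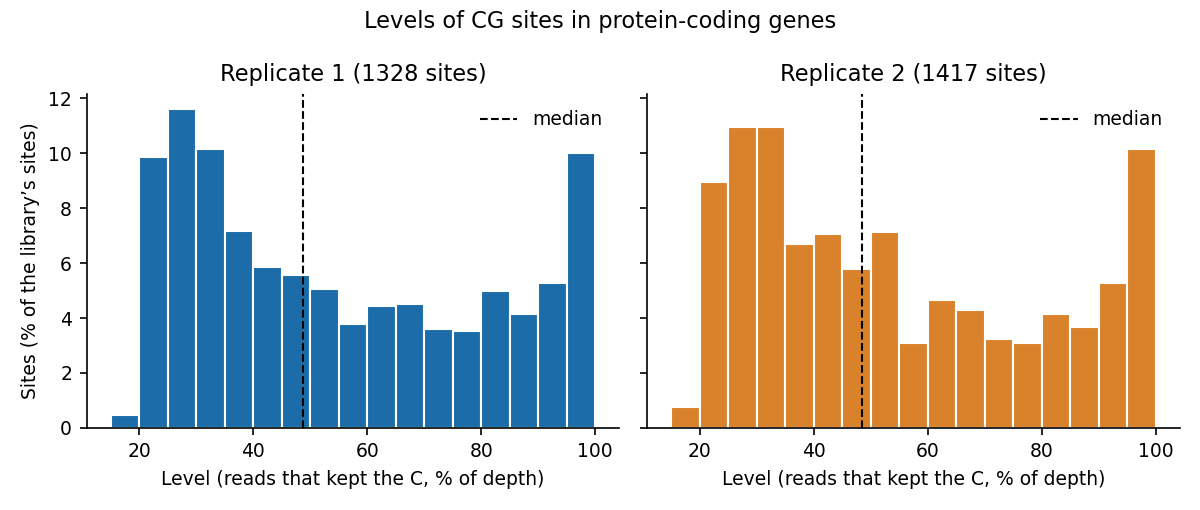
Share of each library's CG sites in protein-coding genes (y axis, %) by level (x axis, reads that kept the C as % of depth) in bins of 5 points, with the median as a dashed line. Listed sites gather at 20% to 40% and again above 95% in both replicates. Cytosines that missed the calling limits are not shown.

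Sites at 20% to under 40% made up 38.8% of the members in replicate 1 and 37.5% in replicate 2, and 24.4% and 23.3% stood at 80% or more. Every read kept the C at 75 sites (5.65%, Wilson interval 4.53% to 7.02%) and 83 sites (5.86%, 4.75% to 7.20%). Among non-CG calls in the same kind of gene this share was 3.96% (3.65% to 4.30%) and 3.93% (3.62% to 4.26%), and the intervals do not overlap. Among CG calls outside protein-coding genes it was 3.81% and 4.37%, with intervals that overlap those of the members.

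Median levels were close between the classes, at 46.2% and 48.4% for CG calls outside genes and 48.1% and 47.1% for non-CG calls in genes. Member sites had a median depth of 35 reads (quartiles 32 and 40) and a highest depth of 102 in replicate 1 and 104 in replicate 2. At such depths the 95% Wilson interval of a level in replicate 1 was 27.8 points wide in the median. Reads were amplified by PCR without molecular identifiers, so all intervals here cover counting error only. Differences between site classes were not tested, since sites of 1 library are not replicates.

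A depth of 50 or more was reached by 6.55% (5.34% to 8.01%) of members in replicate 1 and 6.42% in replicate 2. Among non-CG calls in genes it was 4.05% (3.73% to 4.40%) and 4.12%, and among CG calls outside genes 3.68% and 4.01%. Deep sites were thus a larger share of the members in both libraries. Of the members with a depth of at least 50 in replicate 1, 19.5% (12.6% to 29.1%) stood at a level of 80% or more, against 26.2% (23.5% to 29.1%) at depths of 30 to 39. In replicate 2 the shares were 24.2% (16.5% to 33.9%) and 24.3% (21.8% to 27.1%), and in both libraries the intervals overlap.

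The deepest sites listed in both libraries kept their level between them. The potassium channel gene Kcnn1 stood at 23 of 78 and 24 of 79 reads, the adiponectin receptor gene Adipor2 at 46 of 69 and 45 of 69, and Ranbp9 at 40 of 63 and 40 of 62. The ubiquitin ligase gene Marchf9 had 18 of 61 and 18 of 60 reads, and the tRNA methyltransferase gene Trmt1 had 87 of 87 and 56 of 56. The Fisher test described further on called none of them. It assumes independent reads and cannot call levels this alike, so this adds no support.

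Just below full retention were Stub1, which encodes the ubiquitin ligase CHIP, at 44 of 45 and 45 of 45 reads, Ssbp4 at 42 of 43 and 43 of 43, and Dagla, a diacylglycerol lipase of endocannabinoid synthesis, at 49 of 50 and 50 of 51. Fam117b had 49 of 50 in both and Rnf31, a subunit of the linear ubiquitin chain complex, 37 of 37 and 37 of 38. Carmil3, Grip1, Ppil4, Zfp423 and the endothelial adhesion gene Sele also stood between 96.8% and 100% in each library. At the other end, the remodeller gene Chd9 had 10 of 55 reads in both libraries (18.2%), Hif1a, the oxygen-regulated transcription factor, 9 of 45 in both (20.0%), and Cadps2, which primes secretory vesicles, 11 of 51 and 10 of 50. Fam160b1 with 10 of 50 and Marchf1 with 8 of 39 were as low.

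CG calls lay nearer the starts of genes than non-CG calls did. Gene strand was known for 1055 member sites in replicate 1 and 1108 in replicate 2. In the first 2 kb of a gene lay 32.2% of these (29.5% to 35.1%) in replicate 1 and 33.7% (30.9% to 36.5%) in replicate 2. For non-CG calls in genes the shares were 11% (10.4% to 11.6%) and 10.6% (10.0% to 11.2%), and the intervals are far apart.

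Narrowed to the first 500 bases, the shares were 19.6% and 19.4% of member sites against 5.00% and 4.60% of non-CG sites. The last 2 kb held 8.25% and 8.12% of member sites, close to the 6.97% and 6.94% of non-CG sites. The median distance from the 5′ end was 10990 bp and 11730 bp for members and 29974 bp and 29460 bp for non-CG sites. The plot along the gene divides each gene into 10 equal parts, and the part at the 5′ end held 32.7% and 33.4% of CG sites and 14.5% and 14.3% of non-CG sites.

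**Figure D2:**
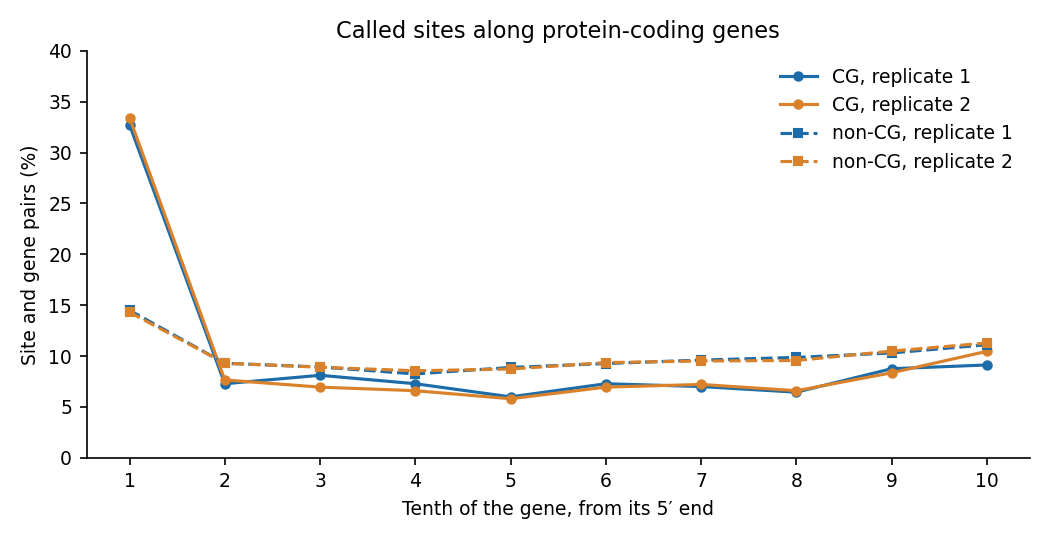
Share of site and gene pairs (y axis, %) in each of 10 equal parts of the gene counted from its 5′ end (x axis), for CG sites (circles, solid) and non-CG sites (squares, dashed) of replicates 1 and 2. CG sites stand above non-CG sites in the part at the 5′ end, at 32.7% and 33.4%, and below them in all later parts.

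Levels did not follow this gradient. The median level was 46.5% in the first 2 kb and 50.0% in the rest of the gene in replicate 1, and 50.0% and 47.2% in replicate 2, so the direction differed between the libraries. On the coding strand lay 52.9% of member sites (49.8% to 55.9%) in replicate 1 and 51.0% (48.0% to 53.9%) in replicate 2. Both intervals hold an even split.

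CpGs themselves are densest at gene starts, and the promoter sequences allowed the calls to be set against the cytosines present. A window with more CpGs offers more CG cytosines to list, so windows with a member are richer in CpGs partly by how they are picked. The 142 windows with a member held 30 CpGs in the median and 70.5% G and C, against 13 CpGs and 56.3% over all 21263 windows. In the parts of the windows that lie inside a gene, 83 of 358436 CG cytosines were listed in replicate 1, or 2.32 per 10000 (1.87 to 2.87), and 79 in replicate 2, or 2.2 (1.77 to 2.75). For other cytosines the rate was 1.64 (1.45 to 1.87) and 1.51 (1.32 to 1.73) per 10000. CG cytosines were listed 1.41 and 1.46 times as often.

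Within windows of like CpG number, the intervals of the rates overlapped. In windows with 30 or more CpGs, 3.43 CG and 3.26 non-CG cytosines per 10000 were listed in replicate 1 and 2.88 and 2.62 in replicate 2. In windows with 20 to 29 CpGs the CG rate was the lower, at 1.74 against 2.22 and 1.92 against 2.49, and with 10 to 19 CpGs it was the higher, at 1.93 against 1.40 and 1.93 against 1.33. Windows with 0 to 9 CpGs held 1 and 3 CG calls. Calls of both contexts were most frequent in the windows with 30 or more CpGs. Depth at uncalled cytosines is not known, so coverage and calling cannot be told apart here.

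Before the called C stood a C in 38.6% and 38.0% of these promoter sites, a G in 38.6% and 40.5%, a T in 15.7% and 13.9%, and an A in 7.23% and 7.59%. Over all CpGs of the same windows the shares were 37.0%, 41.8%, 11.3% and 9.90%. Deaminases of the APOBEC family commonly favour a T before their target. For T the interval was 9.39% to 25% in replicate 1 and 7.96% to 23.2% in replicate 2. Both intervals are wide and hold the share of T over all CpGs of the same windows. Whether a sequence preference of the deaminase shaped the calls was not tested. After the CG, a G followed in 33.7% and 33.2% of all members, a C in 28.7% of both, a T in 19.7% and 20.3% and an A in 17.9% of both.

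Sites listed in both libraries were 44.4% of the members in replicate 1 and 41.6% in replicate 2. For CG calls outside protein-coding genes the share was 40.1% and 38.4%, and for non-CG calls in genes 40.47% and 38.95%. The intervals of these shares overlap those of the members, except for non-CG calls in replicate 1. Shared members had a median level of 51.3% and 51.4%, against 46.7% and 46.6% for members listed by 1 library alone. At 80% or more stood 27.8% (24.4% to 31.6%) of the shared and 21.7% (18.8% to 24.8%) of the unshared members in replicate 1. A shared site met the calling limits in both libraries, so shared and unshared members were selected differently, and these gaps were not tested. The level reached 80% in both libraries at 160 sites, and every read kept the C in both at 31.

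The counts of the 2 libraries were the same, reads kept and reads lost alike, at 423 of the 589 shared members (71.8%, 68.1% to 75.3%). Kept and lost reads were each within 1 read at 93.5% of the shared members. Over all 11542 shared sites of any context these shares were 70.6% and 90.8%, so such likeness was not particular to the members. At shared members the difference in level was 0 in the median and within 5 points at 587 sites. A two-sided Fisher exact test, adjusted by Benjamini-Hochberg over all 11542 shared sites, called 3 sites in all (0.026%) and 0 of the 589 members, and 0 members had an unadjusted p under 0.05. A chi-square test also called 0 members. The differences were thus smaller than counting error alone, since the interval of a single level was 27.8 points wide in the median. The libraries are counted as 1 sample wherever they are combined.

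The lowest p among members, 0.0731 (adjusted p of 1 by the exact test), was that of Zc3h7a, an RNA-binding protein gene, at 32 of 73 and 7 of 30 reads. Rab11fip3 (exact p = 0.616), Ifrd1 (0.639) and another Zc3h7a site (0.7) were also among the 5 members with the lowest p. Rab11fip3, an effector of the recycling GTPase Rab11, had 36 of 37 and 37 of 40 reads, and Ifrd1 26 of 40 and 29 of 41.

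**Figure D3:**
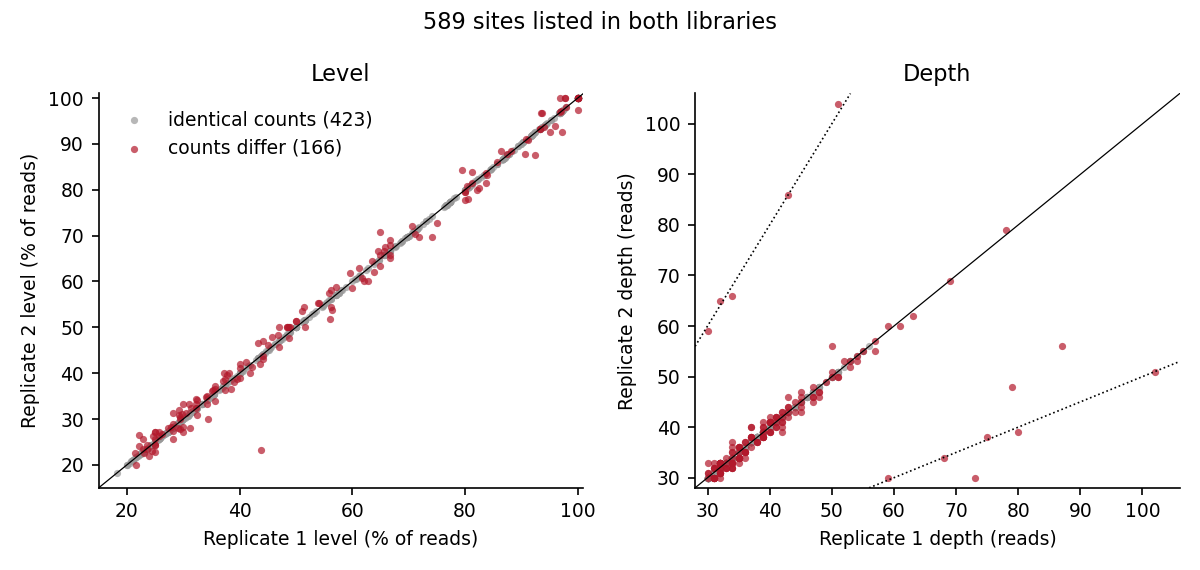
Level (left, % of reads) and depth (right, reads) of the 589 CG sites in protein-coding genes listed in both libraries, replicate 1 on the x axis and replicate 2 on the y axis, with grey points for identical counts and red points for others. Solid lines mark equality and dotted lines a depth ratio of 2: most sites lie on equality and a small set lies along the dotted lines.

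Where depths differed between the libraries at shared members, they were mostly either nearly equal or near a ratio of 2. Outside 13 windows dense in calls, 439 of 582 shared members (75.4%) had equal depth and 131 (22.5%) a ratio under 1.2. Ratios from 1.2 to under 1.8 occurred at 2 sites and ratios from 1.8 to under 2.2 at 10 (1.72%), with 0 above. Over all shared sites outside these windows, 0.958% and 2.17% had ratios in those ranges.

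At the sites with such a ratio the level was almost the same in both libraries. Dst, which encodes the cytoskeletal linker dystonin, had 36 of 43 reads in replicate 1 and 72 of 86 in replicate 2, which is 83.7% in both. Cntfr, the receptor of ciliary neurotrophic factor, had 24 of 102 and 12 of 51, which is 23.5% in both. Zmiz1, a transcriptional coregulator, had 41 of 51 and 84 of 104.

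The others of the 10 were Kat6b, a histone acetyltransferase, at 26 of 32 and 53 of 65 reads, Ap3b1 at 22 of 59 and 12 of 30, Fem1a at 24 of 80 and 13 of 39, Rem1 at 28 of 30 and 55 of 59, Akirin1 at 19 of 34 and 38 of 66, Zmpste24 at 68 of 68 and 34 of 34, and Cdk6. In 5 of the 10 replicate 2 was the deeper library. This set was singled out after its values were seen.

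Members listed by 1 library alone often had a counterpart nearby in the other library with nearly the same counts. Outside the dense windows, 218 of 734 such sites in replicate 1 (29.7%, 26.5% to 33.1%) had a site listed by replicate 2 alone within 120 bp whose kept and lost reads were each within 1 read of theirs, and in replicate 2 it was 209 of 824 (25.4%, 22.5% to 28.4%). Over unshared sites of all contexts the shares were 21.0% (20.4% to 21.7%) and 19.7%. Of these partners, 124 and 117 lay 91 to 120 bp away and 58 and 57 within 5 bp. Between these, 35 and 32 partners lay 61 to 90 bp away, while 1 and 3 lay at 6 to 60 bp, as the plot of partner distances shows.

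**Figure D4:**
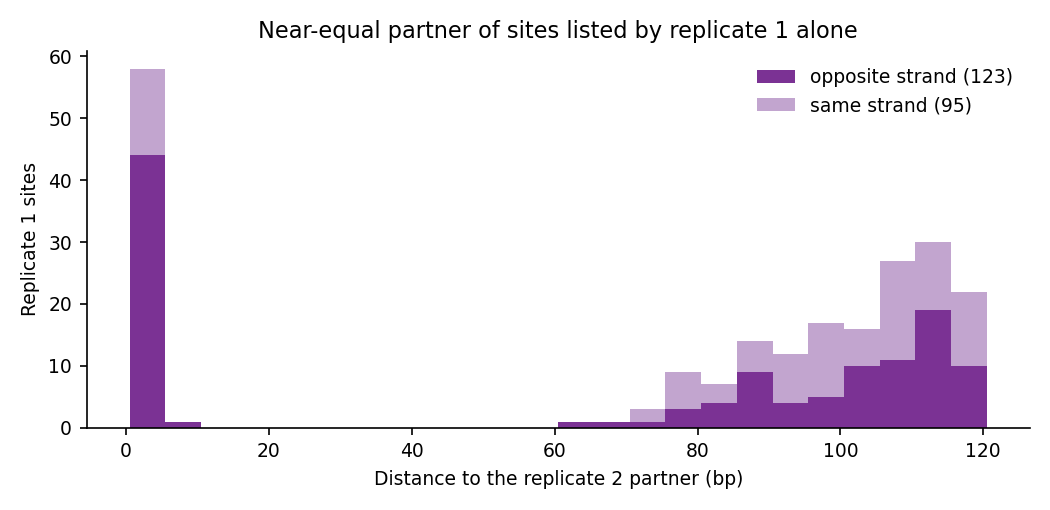
Number of replicate 1 CG sites in protein-coding genes (y axis) by the distance in bp (x axis) to a near-equal site listed by replicate 2 alone, stacked by strand. The 218 pairs fall into a group within 5 bp, mostly on opposite strands, and a group from about 60 to 120 bp.

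The partner was on the opposite strand at 123 of the 218 sites (56.4%) in replicate 1 and 113 of 209 (54.1%) in replicate 2, and its context was CG at 29.4% and 29.7%. At 30 sites in each library the partner was the other C of the same CpG. The promoter of Prdm1, a repressor needed for germ cell specification, held such a pair, with 14 of 31 reads on the plus strand in replicate 1 and 14 of 32 on the minus strand in replicate 2. The sequence is chr10:44458771-44458800 on the minus strand, with the CpG in capitals.
Prdm1: ggagtgaatcagacCGtcagtattggtaaa

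The promoter of Myo5a, a myosin motor of vesicle transport, showed the longer spacing. Replicate 1 alone listed a plus-strand site with 30 of 31 reads, and replicate 2 alone listed a minus-strand site 81 bp away with 30 of 30. The 105 bases are chr9:75071086-75071190 on the plus strand, with both CpGs in capitals. Prdm1 and Myo5a were chosen as examples after their values were seen.
Myo5a: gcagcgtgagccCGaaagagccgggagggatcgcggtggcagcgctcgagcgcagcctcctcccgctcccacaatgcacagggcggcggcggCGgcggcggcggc

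Although a CG reads the same on both strands, a CpG listed on both within 1 library was seen once among 1327 CpGs in replicate 1 and at 0 of 1417 in replicate 2. That CpG lay in Zc3h7a, in a window dense in calls, with 28 of 50 reads on the plus strand (56%) and 10 of 44 on the minus strand (22.7%). Depth and level of an unlisted C on the other strand are not known. At 30 sites in each library that C was the near-equal partner listed by the other library. Listing on 1 strand therefore does not show that 5fC sat on that strand only. Another called cytosine of any context lay within 100 bp of 4.22% and 4.09% of members, against 1.74% and 2.09% of non-CG calls in genes. For CG calls outside protein-coding genes it was 3.30% and 2.55%, with intervals that overlap those of the members in both libraries.

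A site listed in both libraries was present in 575 of 21887 protein-coding genes, or 2.63%. In 547 of these there was 1 such site, in 26 there were 2, in Mical3, a flavin monooxygenase that acts on actin, there were 3, and in Zc3h7a there were 5. Longer genes held a site more often: when genes were ranked by length into 4 groups of equal size, 0.822%, 1.74%, 2.50% and 5.45% of the genes did, from the shortest group to the longest. Per Mb of gene the order was the reverse, with 3.44, 1.65, 0.949 and 0.384 sites.

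Within a gene, levels could lie far apart. Over the 28 genes with 2 or more shared sites the gap between the highest and the lowest level was 19.1 points in the median and ran from 2.87 points in the axon guidance gene Sema3f to 75.8 in Ctu2, which acts in tRNA thiolation. In Ctu2 the sites, 1397 bp apart on the same strand, had 30 of 30 and 8 of 33 reads, identical in both libraries. The autophagy gene Atg2a had one site at 37 of 37 in both libraries and another at 14 of 48 and 15 of 47.

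Gaps above 50 points were also seen in Arhgap26, with 33 of 34 in both libraries and 17 of 43 and 17 of 44, in Pitpnc1, a phosphatidylinositol transfer protein, with 29 of 32 and 29 of 33 against 11 of 31 in both, and in Mical3, with 26 of 30, 24 of 34 and 9 of 39 in both. Wwox, whose sites lay 632362 bp apart, stood at 77.4% and 71.4% in both libraries. Sites close together could differ more than sites far apart: 2 sites of Spsb2, a SOCS box protein, lay 363 bp apart at 71.8% and 30.6%, whereas Zc3h18 and the overlapping Gm39270 held sites 9 bp apart at 32.5% and 25%. The 5 sites of Zc3h7a lay within 73 bp and spanned 28.5 points.

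Of the 28 genes, 19 had all their shared sites on the same strand and 9 had them within 1 kb. The remaining genes had gaps from 6.54 points in Sfi1 to 41.8 points in Cux1: Grb10, Gata2, Lrmda, Tmtc1, Atp8b2, Cd86, Kif26a, Abcg1, Ngef, Itpr2, Sdk2, Pax7, Nexmif, Zfp865, Sh2d4a, Sfi1 and Cux1. Cux1, a homeobox factor, spanned 48.5% to 90.3%, and the kinesin-like gene Kif26a 68.4% to 87.1%. Nexmif, on the X chromosome, was high at both sites, at 82.4% and at 93.9% and 93.8% in replicates 1 and 2. Sh2d4a was low at both, at 21.1% and 28.3%.

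The genes were also read through 12 lists by role, which were chosen with earlier results of these data known and serve as a description. Among pluripotency factors, 2 of 26 held a shared site: Klf4, a reprogramming factor, at 14 of 42 reads in both libraries (33.3%), and Klf5 at 8 of 32 in both (25%). Of 25 genes of cytosine methylation and demethylation, 1 did, the de novo methyltransferase gene Dnmt3a, at 22 of 31 in both (71.0%). Of 32 lineage regulators, 2 did. These were Pax7, a factor of muscle stem cells, at 28 of 46 and 17 of 36 reads in both libraries, and Gata2, a factor of blood progenitors, at 29 of 44 and 10 of 30.

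Chromatin genes included the demethylase gene Kdm6b at 23 of 35 in both libraries and the methyltransferase genes Kmt2d, at 16 of 41 and 16 of 42, and Kmt2a, so that 3 of 25 genes of histone methylation held a shared site. Of 25 remodellers and acetyltransferases 3 did, with Arid1b, a BAF complex subunit, at 9 of 40 in both beside Kat6b and Chd9. The actin and microtubule list had the greatest share, 4 of 25 (16%), with Mapt, which encodes tau, at 18 of 32 and 18 of 31 and Mical2 at 20 of 40 in both, beside Dst and Mical3. These genes were long, with a median of 161427 bp against 17169 bp over all protein-coding genes.

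The imprinted adaptor gene Grb10 was the 1 of 24 imprinted genes, at 23 of 42 and 24 of 31 reads in both libraries. Apc, a scaffold that destabilises beta-catenin, was the 1 of 25 signalling genes, at 14 of 32 in both. Among 20 neuronal adhesion and channel genes, Lrrc4c had 22 of 35 and Cntn5 26 of 32 in both. A shared site was listed in 0 of 25 DNA repair genes, 0 of 20 ribosomal protein genes and 0 of 15 fibroblast genes. With 2.63% of all genes holding one, lists of this size differ from the background by few genes.

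By chromosome, members were sparse on the X. Replicate 1 listed 13 there and replicate 2 listed 17, which is 0.285 and 0.372 per Mb of protein-coding gene span. The autosomes had a median of 1.33 and 1.37 per Mb. Of the autosomes, chromosome 8 was the densest, with 1.98 and 2.24 per Mb. The sparsest autosome was chromosome 14 in replicate 1, with 0.913, and chromosome 18 in replicate 2, with 0.910. The X thus lay below every autosome in both libraries. Non-CG calls in genes showed the same order, with 3.48 and 3.57 per Mb on the X, an autosomal median of 13 and 13.7, and the highest values, 21.6 and 22.0, on chromosome 8. On the X, CG sites were 7.56% and 9.44% of the calls in genes, so the low density there was shared by both contexts. Coverage at uncalled cytosines of the X is not known.

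**Figure D5:**
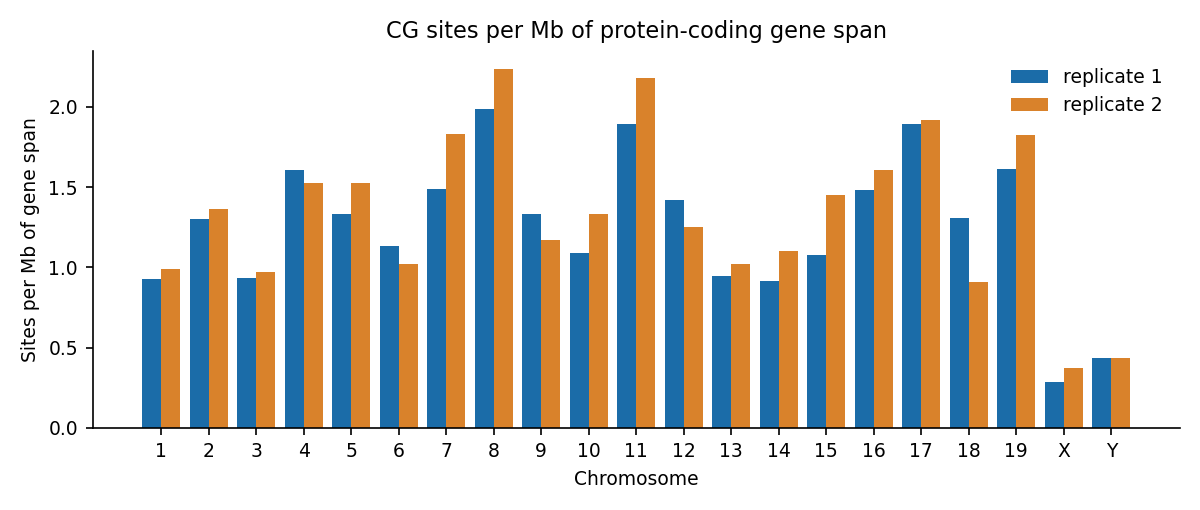
CG sites per Mb of protein-coding gene span (y axis) on each chromosome (x axis) in replicates 1 and 2. Chromosome 8 is highest, at 1.98 and 2.24, and the X, at 0.285 and 0.372, lies below every autosome.

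CG sites in genes were 62.8% (60.7% to 64.8%) of CG calls in replicate 1 and 63.3% (61.2% to 65.2%) in replicate 2. Of calls of any context, 14926 lay inside protein-coding genes and 12961 outside them in replicate 1. In replicate 2 these counts were 15544 and 13474. The CG share of the calls was 8.90% (8.45% to 9.36%) and 9.12% (8.67% to 9.58%) inside protein-coding genes and 6.08% (5.68% to 6.50%) and 6.11% (5.72% to 6.53%) outside them. The intervals do not overlap in either library. The density of CpGs inside and outside genes over the genome was not computed. Whether the difference goes beyond that density was therefore not tested, and these shares do not show a preference of the mark for genes.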

How the data were processed

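Per the labels' protocols, stem cell DNA was fragmented, tagged with biotin, enriched on beads, deaminated and put through PCR. Bismark 0.23.1, Bowtie2 2.4.5, SAMtools, FastQC 0.11.9, cutadapt 4.1 and the mm10 build are named, without roles, per the submitters' processing notes. Removal of duplicate reads and pooling are not given in the sources used here. Per the file headers, the authors deposited for each called cytosine raw read counts (C kept, C lost and their sum, the depth) and a p-value with its adjusted p-values. In both libraries the listed depth was at least 30 and the adjusted p below 0.05.

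Levels, 95% Wilson intervals and Fisher's exact tests were computed with scipy 1.17.1, pandas 2.3.3 and numpy 2.4.6 under Python 3.11.15, and plots with matplotlib 3.10.9. The reads at member sites summed to 49618 in replicate 1 and 52945 in replicate 2, which is not the depth of the libraries. Libraries were matched by chromosome, position and strand. The Fisher test was tested on simulated data with known answers. The simulated libraries were drawn independently of each other, so this does not show how the test behaves on libraries as alike as these. Gene starts, ends and promoter sequences came from RefSeq on GRCm38.p6, the build of mm10, and gene strand from the promoter table, for 17492 of 21887 genes. Exons and introns were not used here.

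The members, lists and tests were chosen with earlier results of these data known. Named are genes with 2 or more shared sites, the 10 deepest shared sites, the 10 with the highest lower bound of a pooled level below 100%, the 5 with the lowest level, the 5 with the lowest Fisher p, up to 12 in promoter windows, CpGs listed on both strands, and list genes with a shared site. One site that the rule names is not reported here. Alternatives were stricter adjusted p, depth and level minimums, removal of dense windows, 2 kb flanks, counts within 1 read, a chi-square test and each replicate alone.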

Additional observations from a re-analysis of the deposited data

How the results depend on the processing

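Of 76 alternatives over 10 results, 62 left the value within its binomial interval or, for counts, within 1.5 times, and 14 moved it. Reversal of direction was not scored. The coding-strand share passed from above to below an even split at a depth of at least 50. Requiring an adjusted p below 0.01 raised the median level from 48.6% to 52.3%, and below 0.001 to 58.6%, with 29.5% of sites at 80% or more in place of 23.8%. A depth of at least 50 left 89 sites on average per library in place of 1373, and 74.2% of CG calls lay in genes in place of 63.0%. There, 39 were listed in both libraries in place of 589, 46.2% of them had identical counts in place of 71.8%, 37 genes held one in place of 575, 44.8% lay in the first 2 kb in place of 32.9%, and 48.9% on the coding strand in place of 51.9%. With 2 kb flanks, 69.7% of CG calls counted as in genes and 38.5% of those lay in the first 2 kb. Without dense windows the Fisher test called 1 site of any context in place of 3. Counts within 1 read were shared by 93.5%. Matching CpGs on either strand, an alternative added after the data were seen, gave 623 shared sites. Each replicate alone gave 62.8% to 63.3% of CG calls in genes, 1328 to 1417 sites, a median of 48.5% to 48.7%, 23.3% to 24.4% at 80% or more, 32.2% to 33.7% in the first 2 kb and 51.0% to 52.9% on the coding strand. The cause of these shifts was not tested. No paired analysis was possible because there is 1 group. Depth limits single levels to intervals about 27.8 points wide, and uncalled cytosines were not analysed here.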

Other observations

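Several genes of the lists held a CG site in 1 library alone. In replicate 1, Fn1, the gene of fibronectin, stood at 26 of 39 reads, the NuRD subunit gene Mbd3 at 20 of 36, the remodeller gene Chd8 at 26 of 39, the polycomb ligase gene Rnf2 at 13 of 34, the skeletal factor gene Runx2 at 23 of 32 and the forebrain factor gene Lhx2 at 33 of 37. The signalling genes Smad1 and Smad3 stood at 8 of 30 and 9 of 34, and Klf4 had a second site at 35 of 36. In replicate 2 alone, Fn1 had a site at 26 of 38, the imprinted ubiquitin ligase gene Ube3a at 33 of 33, the imprinted gene Rtl1 at 7 of 31, the acetyltransferase gene Crebbp at 19 of 32, the remodeller gene Chd1 at 31 of 46 and the repair gene Ercc6 at 19 of 30.

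For most of the sites named here the other library listed a near-equal site within 120 bp. They were picked by hand and do not give the general rate. Over all members listed by 1 library alone outside dense windows, the share was 29.7% in replicate 1 and 25.4% in replicate 2. The Fn1 sites of the 2 libraries formed a near-equal pair, on opposite strands. Near the Chd8 site, replicate 2 listed a non-CG cytosine with 26 of 39 reads 83 bp away on the same strand, and near the Crebbp site replicate 1 listed one with 19 of 32 reads 99 bp away on the opposite strand. The sites of Mbd3, Runx2 and Smad3 had near-equal non-CG partners in replicate 2, and those of Ube3a, Rtl1 and Chd1 had them in replicate 1. No such partner was listed for Rnf2, Lhx2, Smad1, the second Klf4 site or Ercc6. The genes of this section were named after their values were seen.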
